A study of Homo sapiens with 9 samples.

Results

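Amino acid transporters are described here as 10 genes fixed by name, SLC7A5, SLC3A2, SLC7A11, SLC7A1, SLC7A6, SLC1A4, SLC1A5, SLC38A1, SLC38A2 and SLC43A1, out of 62700 genes in Gencode v44. The data are TIF-Seq2 libraries, in which the capped 5′ end and the polyadenylated 3′ end of each cDNA are joined and sequenced as 1 read pair. All libraries came from K562, an established human chronic myeloid leukaemia line that carries the BCR-ABL1 kinase. Imatinib, an inhibitor of that kinase, was given at 1 µM for 24 h to the cells of 2 libraries, and DMSO, its solvent, to those of the other 2. A pair was counted for a transporter when its ends lay on the strand of the gene, at most 1 kb outside its body. All 10 genes had enough pairs to be tested, from 100 pairs over the 4 libraries for SLC7A11 to 2344 for SLC3A2.

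Depth was 3695520 and 5135829 read pairs for DMSO (replicates 1 and 2) and 4263670 and 2263121 for imatinib, and values below are given in that order. The study calls the replicates biological, but no source used here says whether they were separate cultures, so the p-values below measure the spread between these libraries. Levels are given as CPM, the pairs of a gene per 1000000 pairs of the library, with library sizes scaled by TMM factors. Of the 16 erythroid marker genes, all were detected and 12 rose after imatinib, with a median log2 fold change of 1.77 over the list. The summed level of the erythroid list was 7214 to 8447 CPM in DMSO and 22252 to 22524 CPM after imatinib. Its part in the transporter results was not tested. Among markers of other cells, 3 of 7 megakaryocyte, 3 of 8 lymphocyte, 3 of 7 monocyte and granulocyte and 4 of 8 fibroblast and epithelial genes had no read pair. The defining genes CD3E, MS4A1 and CD14 were among those at 0. Of 2 megakaryocyte genes tested, 1, the tubulin TUBB1, rose (log2 fold change 4.72) and 1 was not called, with a median of 2.19. Of 2 lymphocyte genes tested, 1, the T-cell receptor subunit CD3D, fell (-3.88) and 1 was not called, with a median of -2.18. Summed levels of the lymphocyte list were 80.0 to 89.5 CPM in DMSO and 16.4 to 19.2 CPM after imatinib, and those of the megakaryocyte list 5.77 to 5.78 and 81.8 to 109 CPM. The monocyte and granulocyte list held 108 to 130 CPM in DMSO and 35.6 to 111 CPM after imatinib, almost all from LYZ, and the fibroblast and epithelial list 136 to 140 and 93.8 to 113 CPM, mostly from EPCAM. In such bulk samples of a cell line, fewer cells that express a gene and less of its RNA per cell cannot be told apart.

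Amino acids cross the plasma membrane through carriers that differ in substrate and in coupling. Light chains of the SLC7 family, among them SLC7A5 (LAT1), SLC7A6 (y+LAT2) and SLC7A11 (xCT), reach the surface as partners of the heavy chain SLC3A2 (CD98hc), while SLC7A1 (CAT1), SLC43A1 (LAT3), the SLC1A carriers and the SLC38A carriers work without it. Sodium-coupled SLC38A1, SLC38A2 and SLC1A5 bring in glutamine and other small neutral amino acids, and SLC7A5 exchanges such amino acids for leucine and other large neutral ones that feed mTORC1 signalling. Several of these genes are known targets of the transcription factor ATF4, which acts when amino acids are short, and of MYC.

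Each read pair carries both ends of a cDNA, so the genome sequence around each observed start and end can be shown. Whether each such end was a start or a poly(A) site in use was not tested. SLC3A2 is printed first because it had several strong starts. Each stretch is 30 bases of hg38 on the plus strand of chromosome 11, and the capitals mark the base before the leading start and the start itself.
SLC3A2 upstream start, chr11:62856119-62856148: ttggttttctcaccCAgtgcatgtggcagg
SLC3A2 upstream start at 62856161, chr11:62856146-62856175: aggagcggtgagatCActgcctcacggcga
SLC3A2 middle start, chr11:62880881-62880910: cgcctgctgctgagCAgatgcagtagccga
SLC3A2 downstream start, chr11:62881684-62881713: gcggcgccagaagcCAgttgcaaccggttt

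The poly(A) sites of SLC38A2 are shown because they were the most varied of a member with over 400 pairs. Each is the last 30 bases up to the leading 3′ end on the minus strand of chromosome 12 (hg38), with the poly(A) signal in capitals.
SLC38A2 distal site, chr12:46358189-46358218: tgaactaaAATAAAtacatgcttaatcctg
SLC38A2 near-distal site, chr12:46358482-46358511: ttgcAATAAAcaacatcaaattttttcatg
SLC38A2 inner site, chr12:46359387-46359416: atgtgtaATTAAAgacccttatggaactgg
SLC38A2 site near the start, chr12:46372610-46372639: tccttttttATTAAAattatttttcctgcc

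For SLC7A6 and SLC38A1, the members with lower counts after imatinib, the sites used are given in the same way. SLC7A6 lies on the plus strand of chromosome 16 and SLC38A1 on the minus strand of chromosome 12. The last line runs 15 bases on each side of the end, and its capitals mark the A bases in the 10 nt after it, where an oligo(dT) primer can anneal to the RNA itself.
SLC7A6 proximal site, chr16:68297406-68297435: ctctcctgaATTAAAggagccttttgaccc
SLC7A6 middle site, chr16:68298980-68299009: tatatttgctcAATAAAgattgaaggaagc
SLC7A6 distal site, chr16:68301790-68301819: tcagacaccAATAAAttctttttgttgggc
SLC38A1 distal site, chr12:46183064-46183093: tttaaacATTAAAaaatgtgaactaaaagt
SLC38A1 A-rich end, leading base 46187801: ccatctagtcttgtgAAAAAAAAAAaaaaa

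Ends were joined into sites when at most 10 bp apart, and a site was taken as major when it held at least 10% of a gene's pairs. This joining without a tag filter was chosen after the data had been seen, because 5 of the 10 members had no start cluster under the normalized tag filter used here for clusters. By this definition 9 members had 15 major starts and all 10 had 19 major poly(A) sites. Of the starts, 12 of 15 had a pyrimidine before and a purine at the first base, the usual initiator, and 11 of 15 lay within 10 bp of an annotated transcript start. None of the 15 opened with a C followed by 4 pyrimidines, the terminal oligopyrimidine motif of translation genes. Of the 19 poly(A) sites, 2 lay before A-rich genomic sequence. Among the other 17, AATAAA stood in the 40 bases before the end in 8, ATTAAA in 5 and another 1-base variant of AATAAA in 4, and 13 lay within 10 bp of an annotated transcript end. The 4 variants were AAGAAA in SLC7A5, AAAAAA and AATGAA in SLC1A4 and GATAAA in SLC7A11, the last beginning only 6 nt before the end. How often such hexamers stand in any 40 bases was not tested, so a variant need not be a signal in use.

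The levels of the 10 genes spanned a wide range in DMSO, and since 1 pair stands for 1 molecule they were not divided by transcript length. How well long transcripts are captured was not tested. SLC3A2 stood far above the rest, with 157 and 119 CPM in DMSO replicates 1 and 2. SLC38A2 (28.0 and 42.9 CPM), SLC1A5 (39.9 and 27.3 CPM) and SLC38A1 (28.0 and 30.6 CPM) came next, and neighbours among these did not differ beyond their ranges. SLC43A1 (15.3 and 22.1 CPM), SLC7A1 (23.4 and 12.9 CPM), SLC7A5 (17.9 and 14.8 CPM) and SLC7A6 (11.8 and 15.2 CPM) formed a lower set whose neighbouring ranges overlapped. SLC7A11 (6.07 and 4.42 CPM) and SLC1A4 (3.47 and 4.42 CPM) were lowest. In this order the DMSO ranges of neighbours did not overlap between SLC3A2 and SLC38A2, between SLC38A1 and SLC43A1 and between SLC7A6 and SLC7A11. By these counts the glutamine carriers SLC38A2, SLC1A5 and SLC38A1 had higher DMSO levels than the light chains SLC7A5, SLC7A6 and SLC7A11, and the partner heavy chain exceeded each of them. For SLC38A1, 38 of 97 and 57 of 159 DMSO pairs ended at 1 site in front of a genomic run of A. The order of levels without A-rich ends was not tested.

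**Figure D1:**
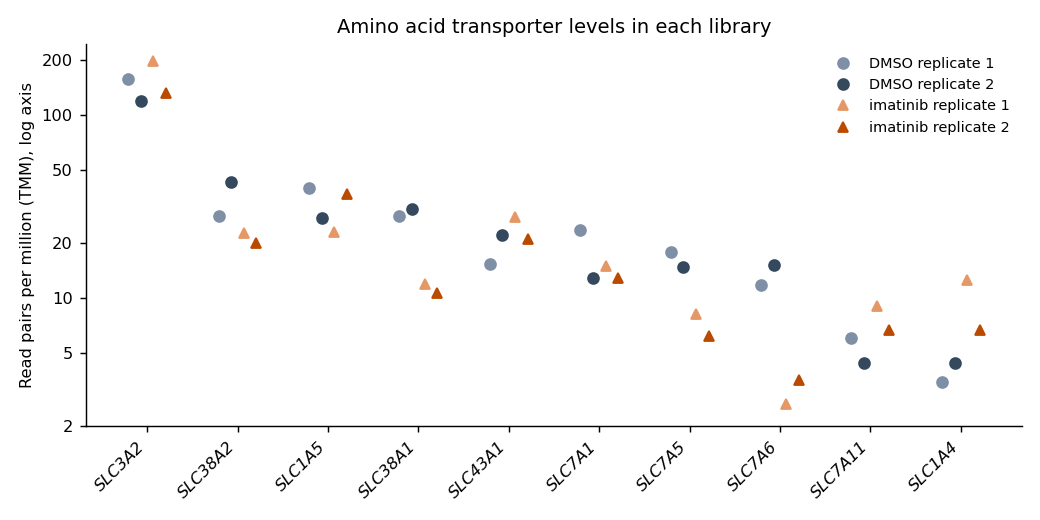
Level of each transporter gene in each of the 4 libraries, in CPM on a log axis, with genes ordered by their DMSO mean. Circles are DMSO and triangles imatinib libraries. For SLC38A1, SLC7A5, SLC7A6 and SLC38A2 both imatinib libraries lie below both DMSO libraries, and for SLC7A11 and SLC1A4 above them.

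After imatinib 2 of the 10 transporters fell and none rose at an adjusted p under 0.05 (edgeR quasi-likelihood test, adjusted over all 12135 genes tested). DESeq2 called the same 2 genes, and at an unadjusted p under 0.05 the members also included SLC7A5 (lower) and SLC1A4 (higher). Over all genes tested 6.15% fell and 8.69% rose by the same rule. The median log2 fold change was -0.26 over the 10 members and 0.03 over all genes. Libraries of the conditions did not overlap for 6 of the 10 members, and for 60.0% of all genes tested, the same share.

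SLC7A6, which trades arginine inside the cell for neutral amino acids and sodium, fell most. Its read pairs numbered 41 and 79 in the DMSO libraries and 12 and 8 in the imatinib libraries, or 11.8 and 15.2 against 2.65 and 3.56 CPM. The lowest DMSO value was well above the highest imatinib value. The log2 fold change was -2.16 (SE 0.41, adjusted p = 0.0112 by edgeR), a level 4.48-fold lower. Without DMSO replicate 2 the adjusted p was 0.0521 and the log2 fold change -1.97. The gene (ENSG00000103064.15, chr16:68264516-68301823, plus strand) overlaps SLC7A6OS on the other strand, and the counts use the strand of each pair.

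SLC38A1 (SNAT1), a sodium-coupled carrier of glutamine, also fell. It had 97 and 159 pairs in DMSO and 54 and 24 after imatinib, equal to 28.0 and 30.6 CPM against 11.9 and 10.7 CPM. The libraries of each condition lay close together and the conditions did not overlap. The log2 fold change was -1.36 (SE 0.31, adjusted p = 0.0217 by edgeR), a level 2.57-fold lower. The call was lost without DMSO replicate 1 (adjusted p = 0.0536) or without DMSO replicate 2 (adjusted p = 0.116), with log2 fold changes of -1.45 and -1.31. The gene (ENSG00000111371.16) spans chr12:46183063-46270017 on the minus strand.

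SLC7A5 (LAT1), the main carrier of leucine and other large neutral amino acids in many tumour cells, had 62 and 77 pairs in DMSO and 37 and 14 after imatinib. These are 17.9 and 14.8 CPM against 8.18 and 6.22 CPM, again without overlap. Its log2 fold change of -1.15 (SE 0.35) missed the threshold (adjusted p = 0.0591 by edgeR). It passed when imatinib replicate 1 (adjusted p = 0.0308) or imatinib replicate 2 (adjusted p = 0.0413) was left out, and when genes with low counts were kept (adjusted p = 0.0271). It did not pass without DMSO replicate 1 (adjusted p = 0.285), without DMSO replicate 2 (adjusted p = 0.163) or in DESeq2 (adjusted p = 0.156). The gene (ENSG00000103257.9) spans chr16:87830023-87869507 on the minus strand.

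SLC1A4 (ASCT1), an exchanger of alanine, serine and cysteine, gave the highest positive estimate. It had 12 and 23 pairs in DMSO and 57 and 15 after imatinib, or 3.47 and 4.42 against 12.6 and 6.67 CPM. Most of its pairs came from imatinib replicate 1. The log2 fold change was 1.31 (SE 0.44, adjusted p = 0.0798 by edgeR). The log2 fold change was 1.62 without imatinib replicate 2 (adjusted p = 0.00167 by edgeR) and 0.74 without imatinib replicate 1 (adjusted p = 0.396). The gene (ENSG00000115902.11) spans chr2:64988477-65023865 on the plus strand.

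The other 6 members did not pass the test. SLC38A2 (SNAT2, ENSG00000134294.14, chr12:46358188-46372773, minus strand), whose synthesis responds to lack of amino acids, gave 28.0 and 42.9 CPM in DMSO and 22.6 and 20.0 CPM after imatinib. Its libraries did not overlap, with a log2 fold change of -0.74 (SE 0.33, adjusted p = 0.163 by edgeR), and without DMSO replicate 2 it was -0.41. SLC7A1 (CAT1, ENSG00000139514.13, chr13:29509414-29595688, minus strand), the main carrier of arginine and lysine, gave 23.4 and 12.9 CPM in DMSO and 15.0 and 12.9 CPM after imatinib (log2 fold change -0.35, SE 0.38). SLC1A5 (ASCT2, ENSG00000105281.12, chr19:46774883-46788594, minus strand), which exchanges glutamine for other neutral amino acids, gave 39.9 and 27.3 CPM in DMSO and 23.0 and 36.9 CPM after imatinib (log2 fold change -0.18, SE 0.35). In SLC7A1 and SLC1A5 the DMSO libraries differed in CPM by more than the means of the conditions, and the conditions overlapped. In SLC38A2 the DMSO libraries differed in CPM about as much as those means, while its imatinib libraries lay close together.

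SLC3A2 (ENSG00000168003.19, chr11:62856004-62888880, plus strand), the heavy chain, had 544 and 619 pairs in DMSO and 887 and 294 after imatinib. These are 157 and 119 CPM against 196 and 131 CPM, with overlapping conditions and a log2 fold change of 0.25 (SE 0.30, adjusted p = 0.615 by edgeR). SLC43A1 (ENSG00000149150.9, chr11:57484534-57515780, minus strand), a carrier of leucine and phenylalanine, gave 15.3 and 22.1 CPM in DMSO and 27.9 and 20.9 CPM after imatinib (log2 fold change 0.38, SE 0.33, and 0.13 to 0.66 with 1 library left out). SLC7A11 (ENSG00000151012.13, chr4:138164097-138242349, minus strand), which imports cystine in exchange for glutamate, gave 6.07 and 4.42 CPM in DMSO and 9.07 and 6.67 CPM after imatinib. Its log2 fold change was 0.63 (SE 0.41, adjusted p = 0.323 by edgeR), and 0.38 to 0.82 with 1 library left out. For SLC7A11 it was -0.11 when only pairs that started within 200 bp of an annotated start were counted, an alternative added after the data had been seen. Of its own pairs, 28.6% and 26.1% in DMSO and 56.1% and 46.7% after imatinib ended before at least 7 A in 10 nt.

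**Figure D2:**
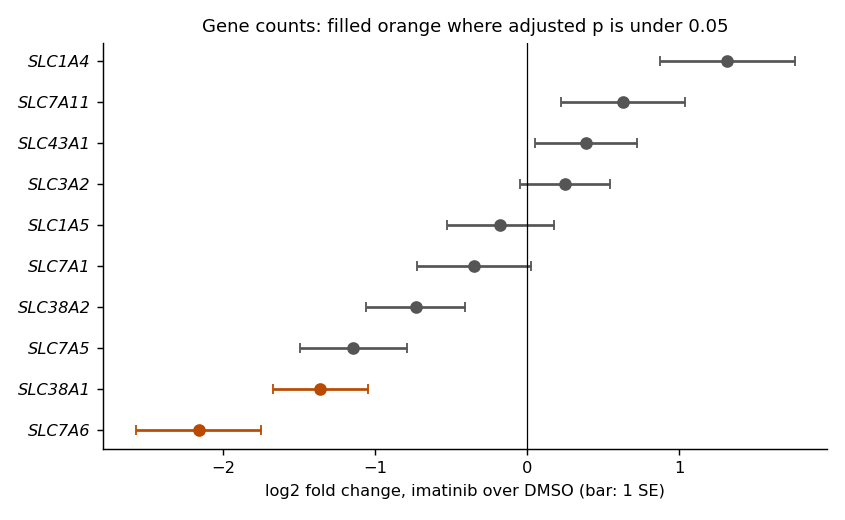
Log2 fold change of imatinib over DMSO for each transporter from the edgeR fit over all genes, with bars of 1 SE and a line at no change. SLC7A6 (-2.16) and SLC38A1 (-1.36), in orange, passed an adjusted p of 0.05, and the 8 genes in grey did not.

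The members differed in how far their read pairs reached. For SLC3A2, 96.6% of the pairs started within 200 bp of an annotated start (95% Wilson interval 95.8 to 97.3%), followed by SLC43A1 with 88.9% (85.1 to 91.8%) and SLC1A5 with 80.3% (76.5 to 83.7%). For SLC1A4, SLC38A1 and SLC38A2 the share was 57.0%, 54.8% and 52.9%, and for SLC7A6 and SLC7A5 42.1% and 35.8%. For SLC7A11 the share was 81.0% and 73.9% in DMSO and 39.0% and 53.3% after imatinib, while 19.0% and 21.7% of its pairs in DMSO and 53.7% and 40% after imatinib started in the last exon. SLC7A1 stood apart with 1.63% (0.637 to 4.12%), or 4 of its 245 pairs. Of its pairs, 94.3% began inside the last exon, 5170 nt long, while 212 of 245 ended at 1 site, chr13:29509415, beside the annotated end of the gene. So the counts of SLC7A1 measure its 3′ end, and no major start was found for it. The last exons of SLC3A2, SLC43A1 and SLC1A5 were 530, 709 and 865 nt long and those of the others 2954 to 7921 nt, with the longest in SLC7A11, whose DMSO share was nonetheless high. These intervals cover counting error only.

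**Figure D3:**
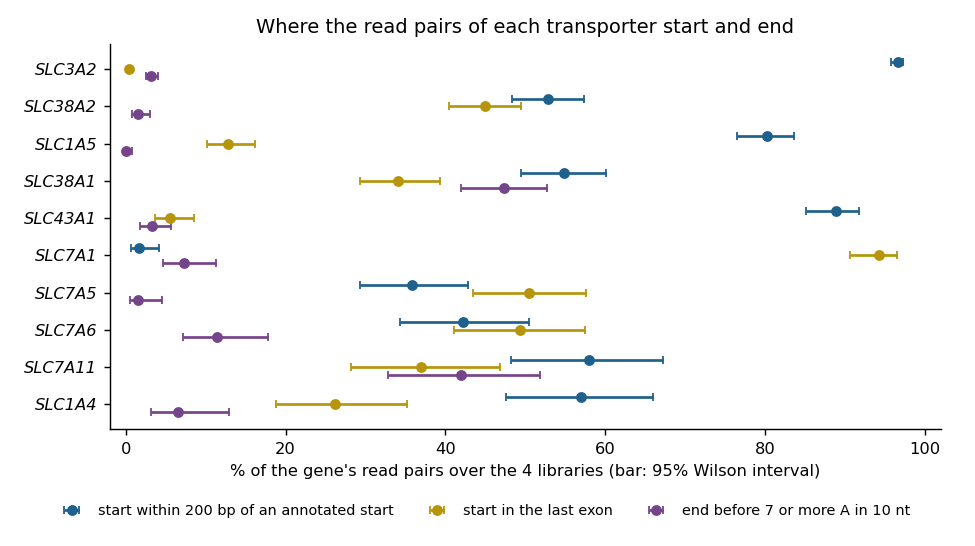
Share of each transporter's read pairs, over the 4 libraries, that start within 200 bp of an annotated start (blue), start in the last exon of the canonical transcript (yellow) or end before at least 7 A in 10 nt (purple), with 95% Wilson intervals. Genes are ordered by DMSO level, with SLC3A2 at 96.6% and SLC7A1 at 1.63% for annotated starts as the extremes.

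In SLC3A2 the choice of start changes where the annotated protein begins. Starts joined within 200 bp gave 3 regions with at least 100 pairs. The upstream region leads at 62856134, the middle one 24762 bp further on at 62880896, and the downstream one 803 bp after that at 62881699. A transcript annotated from the upstream region, starting at 62856111, encodes 631 residues, whereas the canonical one starts at 62880896 in the middle region and encodes 529. The longest one annotated from the downstream region encodes 447. Annotated lengths ranged from 304 to 661 residues in the upstream region and from 47 to 533 in the middle region. The end positions used here do not show which of these transcripts was made. From each region at least 93.3% of the pairs ended within 50 bp of the same poly(A) site, chr11:62888852, which held 2229 of the 2344 pairs of the gene.

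The upstream region held 185 and 268 pairs in DMSO and 158 and 79 after imatinib, which is 34.0% and 43.3% of the SLC3A2 pairs against 17.8% and 26.9%. The middle region held 46.9% and 36.0% in DMSO and 50.8% and 54.1% after imatinib. The downstream region held 13.4% and 15.3% in DMSO and 25.6% and 13.3% after imatinib. The upstream share was thus lower in both imatinib libraries and the middle share higher, while the downstream share was high in imatinib replicate 1 only. Tested as use within the gene, none of these regions passed. The upstream region had a relative log2 fold change of -0.58 (SE 0.29, adjusted p = 0.759 by edgeR's diffSpliceDGE). Of 8 start regions of members that could be tested 0 were called and 0 had an unadjusted p under 0.05, with 1.82% called over all start regions.

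Within the upstream region, 1 position did pass. The start cluster at 62856161 had 24 and 56 pairs in DMSO and 4 and 8 after imatinib, or 6.61% and 14.1% of the clustered SLC3A2 starts against 0.742% and 4.04%. Its relative log2 fold change was -1.68 (SE 0.42, adjusted p = 0.0304 by edgeR's diffSpliceDGE). It was the only call among 8 start clusters of members tested, with 3.32% called over all clusters. The call rests on few pairs in single libraries. It was lost without DMSO replicate 1 (-2.01, adjusted p = 0.121), DMSO replicate 2 (-1.26, adjusted p = 0.714) or imatinib replicate 1 (-0.89, adjusted p = 0.594), and the value was -2.57 without imatinib replicate 2 (adjusted p = 0.0061). By position rather than region, the neighbour at 62856134 had 44 and 43 pairs in DMSO and 17 and 17 after imatinib (relative log2 fold change -0.80, adjusted p = 0.353). The start led by 62856111, in contrast, had 42 and 63 pairs in DMSO and 53 and 24 after imatinib (relative log2 fold change -0.21).

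**Figure D4:**
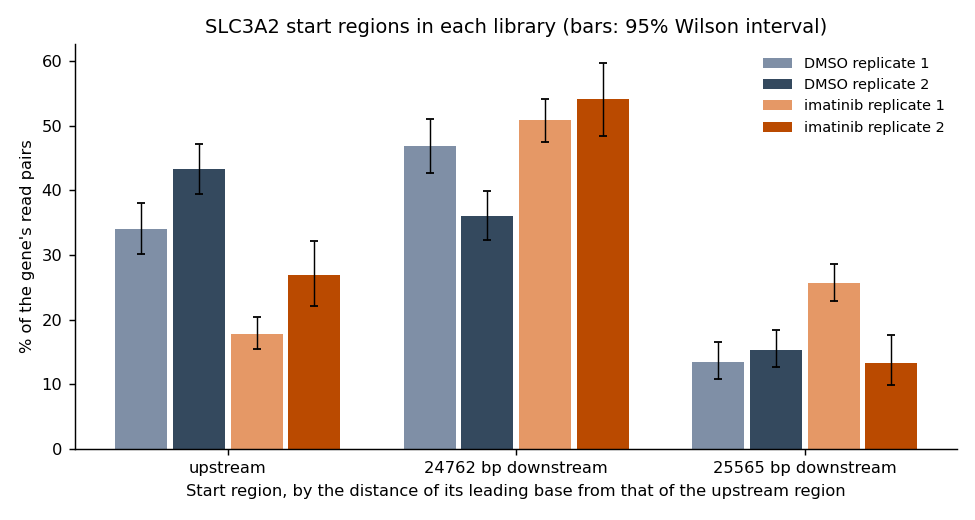
Share of SLC3A2 read pairs that start in each of its 3 start regions, in percent, by library, with 95% Wilson intervals as bars. The upstream region holds 34.0% and 43.3% in DMSO and 17.8% and 26.9% after imatinib, and the middle region 46.9% and 36.0% in DMSO and 50.8% and 54.1% after imatinib, differences that did not pass the test of use.

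The starts of the other carriers ranged from 1 dominant position to several minor ones. SLC1A5 started at chr19:46788594 in 350 of 467 pairs, and 340 of these ended at chr19:46774885. SLC43A1 started around chr11:57515702 in 257 of 341 pairs and ended at chr11:57484535 in 279. SLC38A2 started at chr12:46372773 in 194 of 467 pairs, and SLC7A5 at chr16:87869507 in 62 of 190. SLC7A6 started at 68264550 in 36 and at 68264526 in 16 of its 140 pairs, and SLC38A1 at 46269023 and 46269010 in 45 and 36 of 334. SLC1A4 started at 64989399 in 36 and at 64989355 in 24 of its 107 pairs, and SLC7A11 at 138242350 and 138242377 in 25 and 10 of 100.

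Promoters from RefSeq (GRCh38.p14, 250 bases before to 50 after each annotated start) were matched by symbol for 9 members, all but SLC7A11, with 16 windows in all. A member was counted when any of its windows held a match, whereas the percentages are of single windows. The counts and the percentages are therefore not directly comparable. The letters TGATGCAA on either strand, the core of the C/EBP-ATF response element that ATF4 binds, stood in windows of 2 members, SLC1A4 and SLC1A5, and in 0.866% of 35116 promoters. In SLC1A4 they overlap its leading start, 64989399, beginning 7 bases before it, on the strand opposite to the gene. In SLC1A5 the window belongs to an internal annotated start, 46784814, and not to the start seen in these data. The E-box CACGTG, which MYC binds, was found in windows of SLC7A5, SLC43A1 and SLC1A5, against 7.26% of all promoters. It lay 130 bases before the used start of SLC7A5 and 112 before that of SLC43A1. The letters TGACNNNGC, the core of the antioxidant response element, were found in windows of 5 members, SLC3A2, SLC7A1, SLC7A5, SLC7A6 and SLC1A5, and in 13.3% of all promoters. Near major starts the match began 37 bases before that of SLC3A2, 29 before one of SLC7A6 and 2 before that of SLC7A5. In SLC1A5 both the E-box and the TGACNNNGC match lay in the window of another internal annotated start, 46787293, and not of its major start. TATAAA was found in those of SLC38A1 and SLC43A1, against 11.5%, in windows of annotated starts other than the major ones. TGATGCAA and TGACNNNGC are each shown in 1 example, in SLC1A4 and SLC3A2, with the match in capitals. They are on the plus strand, and that of SLC3A2 lies before its downstream start.
SLC1A4 promoter, chr2:64989372-64989419: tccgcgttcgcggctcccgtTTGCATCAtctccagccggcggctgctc
SLC3A2 downstream promoter, chr11:62881642-62881690: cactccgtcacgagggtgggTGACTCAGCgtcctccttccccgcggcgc

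Poly(A) sites divided the members as well. SLC3A2, SLC1A5, SLC7A5, SLC7A1 and SLC43A1 ended mainly at 1 site each, with 95.1%, 97.9%, 91.6%, 86.5% and 81.8% of their pairs. SLC38A2, SLC38A1, SLC7A6, SLC1A4 and SLC7A11 used several. Only 3 filtered poly(A) clusters of members, all of SLC38A2, could be tested for use. The test needs another cluster of the same gene with enough pairs, so the shares of the other clusters are given as values. None of the 3 was called by edgeR's diffSpliceDGE, 1 had an unadjusted p under 0.05, and 0.0881% were called over all poly(A) clusters.

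SLC38A2 had 4 sites. The distal site, at the annotated end of the 3′ UTR, held 57.7% and 60.1% of the pairs in DMSO and 61.8% and 77.8% after imatinib. The near-distal site, 293 nt closer to the start with its own AATAAA, held 15.5% and 12.1% in DMSO and 0.980% and 2.22% after imatinib, which is 15 and 27 pairs against 1 and 1. Both imatinib libraries were below both DMSO libraries at that site. In the filtered cluster at this site, with 12 and 22 pairs in DMSO and 1 and 1 after imatinib, the relative log2 fold change was -2.0 (SE 0.52, adjusted p = 0.259 by edgeR's diffSpliceDGE). The near-distal site held just under 10% of the gene's pairs and is named here after its values were seen. The inner site, 1198 nt before the distal one with ATTAAA, held 8.25% and 14.3% in DMSO and 6.86% and 0% after imatinib, and 0 of 45 pairs allows a share of up to 6.67% by a limit of 3 pairs, or 7.87% as the upper Wilson bound.

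The last site of SLC38A2 lay only 163 nt after the main start, within the first exon, with ATTAAA 20 nt before the end. It held 11 and 17 pairs in DMSO and 20 and 7 after imatinib, or 11.3% and 7.62% of the pairs against 19.6% and 15.6%. Of its 55 pairs, 44 began at the main start, chr12:46372773. The genome after this end had 1 A in 10 nt, below the limit for A-rich ends. The filtered cluster at this site had a relative log2 fold change of 0.61 (SE 0.36, adjusted p = 1.00 by edgeR's diffSpliceDGE). SLC38A2 also had the highest share of pairs under 300 bp apart among the members, 19.9%, against 0.469 to 7.0% in the other 9.

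**Figure D5:**
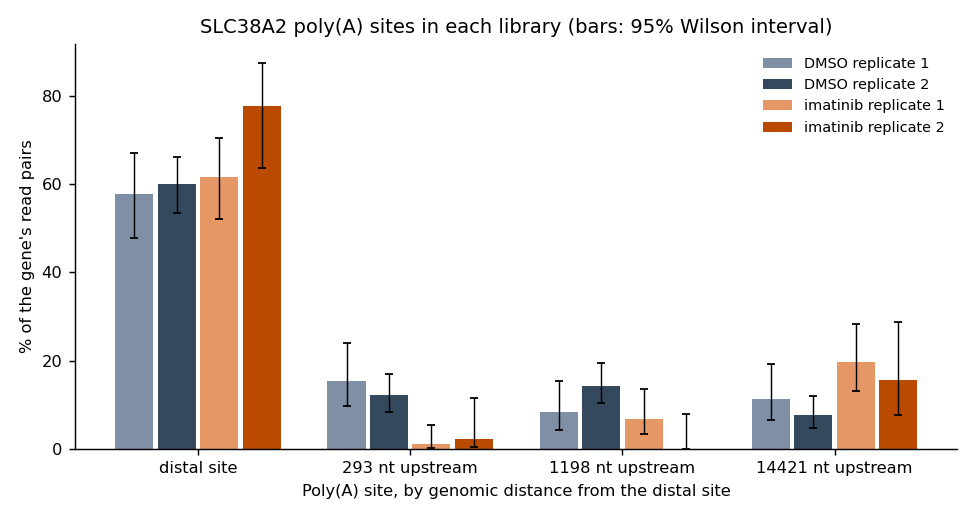
Share of SLC38A2 read pairs at each of its 4 poly(A) sites, in percent, by library, with 95% Wilson intervals as bars and sites named by genomic distance from the distal one. The site 293 nt upstream of the distal end held 15.5% and 12.1% in DMSO and 0.980% and 2.22% after imatinib, and its use did not pass the test (adjusted p = 0.259 by edgeR).

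SLC38A1 had its annotated distal end in 81 of 334 pairs, with 23 and 38 in DMSO and 13 and 7 after imatinib. A larger group, 123 pairs, ended at chr12:46187801 in front of a genomic run of A, with no signal hexamer in the 40 bases before it, although a transcript is annotated to end there. It numbered 38 and 57 pairs in DMSO and 22 and 6 after imatinib, so the groups at both ends were smaller after imatinib. A-rich ends made up 47.3% of the SLC38A1 pairs, against 7.82 to 9.80% of all pairs in the libraries. With A-rich ends and pairs under 300 bp left out, SLC38A1 kept its call (log2 fold change -1.24, adjusted p = 0.0475 by edgeR).

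SLC7A6 ended at 3 sites of its long last exon. The distal site held 22 and 31 pairs in DMSO and 6 and 2 after imatinib, the proximal one 8 and 14 against 4 and 3, and the middle one 3 and 15 against 1 and 0. Each site had fewer pairs in either imatinib library than in either DMSO library. Pairs ending at the proximal and middle sites mostly spanned the gene, with median distances of 32889 and 34456 bp, while those at the distal site had a median of 1417 bp.

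SLC7A11 and SLC1A4 had too few pairs for a test of sites. SLC7A11 ended at the distal 3′ UTR site, chr4:138164099, in 1 and 4 pairs in DMSO and 11 and 3 after imatinib. It ended at the inner site, chr4:138171851, near an annotated transcript end, in 7 and 5 against 2 and 4, and at an A-rich end, chr4:138167167, in 2 and 1 against 10 and 3. Pairs ending at the inner site had a median distance of 70499 bp and those at the distal site one of 1037 bp, with none of the latter from the leading start. SLC1A4 ended at 65023863, 65022845 and 65021502 in 24, 23 and 13 pairs, all in its 3′ UTR.

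Whole start to end combinations, here called TIFs, existed for 5 members under the filters used here, 15 in all, of which 9 had enough pairs for the test. None of the 9 was called by edgeR or by DESeq2, and 1 had an unadjusted p under 0.05, with 11.1% of all TIFs called by edgeR. That one joined the SLC3A2 start at 62856161 to its poly(A) site, with 22 and 46 pairs in DMSO and 4 and 8 after imatinib (log2 fold change -1.82, SE 0.63, adjusted p = 0.0917). The most abundant TIF, from the middle start of SLC3A2, had 195 and 167 pairs in DMSO and 365 and 118 after imatinib (log2 fold change 0.80, SE 0.38, adjusted p = 0.203). For SLC38A2, the TIF from the main start to the near-distal site had 5 and 9 pairs in DMSO and 0 and 1 after imatinib, too few for the test. The main TIF of SLC1A5 had 73 and 97 pairs in DMSO and 55 and 58 after imatinib (log2 fold change 0.06).

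Genes that act with these carriers were read from lists chosen with earlier results of these data known. Among 39 further amino acid transporters only 13 had enough pairs for the test, of which 2 rose and 1 fell, with a median log2 fold change of -0.03. The glycine carrier SLC6A9 rose from 7.51 and 2.31 to 35.2 and 38.2 CPM (log2 fold change 2.96, SE 0.49, adjusted p = 0.00662 by edgeR). SLC38A10 also rose (1.32), and the taurine carrier SLC6A6 fell from 72.8 and 103 to 19.7 and 15.1 CPM (-2.32, SE 0.33, adjusted p = 0.00397 by edgeR).

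Among 40 genes that sense amino acids for mTORC1, 36 were tested, 2 rose and 1 fell. NPRL3, a subunit of the GATOR1 complex, rose (log2 fold change 2.78) and so did KPTN of the KICSTOR complex (1.18), and SAR1B, a leucine sensor, fell (-1.01). Of 28 genes around ATF4, 25 were tested and 2 rose, the eIF2α kinase EIF2AK1 (0.92) and the phosphatase subunit PPP1R15A (1.18), with a median of 0.23. Of 18 genes for cystine and glutathione 15 were tested, and 1, the quinone reductase NQO1, fell (-1.32). Of 17 genes of glutamine metabolism 15 were tested, 1 rose and 3 fell, with a median of -0.26. Among those that fell were the glutamine-using enzymes PFAS (-1.56) and CTPS1 (-0.97), and the ornithine aminotransferase OAT rose (1.23). In each of these lists of genes that act with the carriers most tested genes did not pass, as in the 10 transporters themselves. The same held over all genes tested, of which 6.15% fell and 8.69% rose.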

How the data were processed

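TIF-Seq2 libraries of K562 cells, 2 with DMSO and 2 with imatinib, were used. The deposited tables hold read counts, the number of deduplicated read pairs for each 5′ and 3′ end position, without normalization. The authors made them by trimming with cutadapt 1.16, extracting UMIs, aligning both ends to hg38 with STAR 2.5.3a, keeping uniquely mapped pairs and removing duplicates by UMI. The 3T-fill samples were not used here. Neither were the PacBio models, which hold none of the members. The members and the gene lists were chosen with earlier results of these data known.

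Pairs were summed over Gencode v44 genes with a margin of 1 kb, so that a pair in several gene windows counted for each. Counts were tested with edgeR 4.0.16 (robust quasi-likelihood fit, TMM factors, filterByExpr, all deposited pairs as library size) and adjusted by Benjamini-Hochberg over all genes, with calls at an adjusted p under 0.05. DESeq2 1.42.0 was an alternative. SE was derived from the log2 estimate and its quasi-likelihood F. Start and poly(A) clusters and TIFs were rebuilt after the published steps, with an exponent and fit range chosen here. The 15953 start clusters and 34441 TIFs are therefore not those of the study. Pairs whose end preceded at least 7 A in 10 nt were left out of poly(A) clusters and TIFs but kept in start clusters. Power-law normalization had an exponent of 1.25. Tags with 1 normalized count in 2 libraries were joined within 10 bp, and TIFs had at least 4 pairs 300 bp to 2 Mb apart. Use within genes was tested by diffSpliceDGE. Named were all 10 members, their sites with at least 10% of the pairs or called for use, and up to 6 called genes of each other list. 1 called gene of these lists is not reported here. The deposited tables give the 2 ends of each captured cDNA, counted by UMI, so depth limits precision as the Wilson intervals show, for counting error only. In simulated data 90.2% of 194 genes changed 4-fold were recovered among 11800. In the test of use, 51.8% of 137 poly(A) clusters changed 6-fold were recovered among 10221. The changed clusters were all better covered than the filtered near-distal cluster of SLC38A2 (36 pairs) and were given the dispersion of gene counts.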

Additional observations from a re-analysis of the deposited data

How the results depend on the processing

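Of 129 alternative values of the members' log2 fold changes, 114 kept their direction and their side of the threshold, and no member was called in opposite directions. Leaving out 1 library turned the sign of SLC3A2 (without imatinib replicate 1, range -0.061 to 0.48), SLC1A5 (without DMSO replicate 1 or imatinib replicate 1, range -0.56 to 0.16) and SLC7A1 (without DMSO replicate 1, range -0.75 to 0.099). SLC7A11 turned with pairs from annotated starts (-0.11), and the cause was not tested. SLC7A1 could not be fitted with annotated starts, for want of pairs. Leaving out 1 library gave 0 to 4 members called, 497 to 2143 genes higher and 323 to 1812 lower, 713 to 3603 TIFs with 0 to 2 of members, 30 to 312 start clusters with 0 to 1, 9 to 238 start regions and 0 to 90 poly(A) clusters. In these fits a lone library was assumed to vary like the other group.

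The replicate numbers are shared by the conditions, but nothing in the labels pairs the libraries. With the replicate number as a block, 735 genes were called higher and 413 lower, with 1 member, SLC7A6 (SLC38A1, adjusted p = 0.051 by edgeR). The block gave 1101 TIFs, 130 start clusters with 0 of members, 56 start regions and 0 poly(A) clusters. Deviations of same-numbered libraries correlated at -0.236 over genes, and the crossed pairing, added after seeing the data, called 1933 genes higher and 1790 lower with 4 members, 3606 TIFs with 1, 407 start clusters with 0 and 39 poly(A) clusters.

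DESeq2 called 701 genes higher, with 48.6% of calls higher against 58.6% in edgeR. Without a filter on low counts 1325 genes were lower, 3106 TIFs were called and 1 TIF of a member. Joined into start regions, 184 were called and 0 of members. The use of the SLC3A2 start at 62856161 was called in edgeR with clusters joined within 25 bp and with unnormalized tags. Joining within 25 bp left this cluster itself unchanged, with 92 pairs and a width of 1 bp, so it is no separate check of that site. At 100 to 467 pairs for 9 members, small changes were not detectable.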

Other observations

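Genes beside the transporters gave further values. The noncoding host gene SNHG1, which starts next to the upstream start of SLC3A2 on the other strand, had 678 and 702 read pairs in DMSO and 721 and 444 after imatinib (log2 fold change 0.11, SE 0.29). SLC7A6OS, whose body overlaps SLC7A6 on the other strand, had 208 and 452 pairs in DMSO and 225 and 66 after imatinib, with a log2 fold change of -0.88 (SE 0.35, adjusted p = 0.121 by edgeR). LINC02245, opposite to SLC1A4, had 4 and 14 pairs in DMSO and 27 and 12 after imatinib, with a log2 fold change of 1.48 (SE 0.51, adjusted p = 0.0841 by edgeR). The noncoding gene ENSG00000275719, opposite to the start of SLC1A5, had 12 and 17 pairs in DMSO and 106 and 11 after imatinib. Most of these came from imatinib replicate 1, and its log2 fold change of 2.15 missed the threshold (adjusted p = 0.0536 by edgeR). SLC7A11-AS1 had 7 pairs and SLC38A2-AS1 had 2 over the 4 libraries, and the SLC7A5 pseudogenes SLC7A5P1 and SLC7A5P2 had 0 and 1.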
